A study of Mus musculus with 12 samples.

Results

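The Toll-like receptor (TLR) genes *Tlr1* to *Tlr9* and *Cd14*, the gene of the lipopolysaccharide (LPS) co-receptor, were followed across genotype and stimulus in mouse bone marrow-derived macrophages (BMDMs). The members were the 10 genes of this list, taken by the accession printed for each array probe, whatever their values. Of the 10, 9 had a probe (10 probes in all, of 41174 on the array), and each of the 9 was well above background on all 12 arrays. No probe matched *Tlr5*, which was not analysed here. The members are 9 of 32301 genes or transcripts with a value.

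Total RNA was profiled on 12 one-colour arrays, in 6 groups of 2 cultures. Bone marrow came from C57BL/6 mice of 8 weeks (C57BL6/J in the methods), WT or Keap1 CKO (Keap1 flox/flox::LysM-Cre, called KpCKO), and was grown with M-CSF for 7 days. In KpCKO mice the Cre recombinase is expressed from the lysozyme M locus, so that the floxed *Keap1* gene is deleted in myeloid cells, and its product, which holds the transcription factor Nrf2 low, is reduced. The BMDMs of each genotype were left without a stimulus (Con), given LPS and IFNγ for 6 h (M1), or given IL-4 for 6 h (M2). Each culture held 1 WT and 1 KpCKO mouse, which were male in culture 1 and female in culture 2, so culture and sex cannot be told apart. The labels give the WT mice no flox allele or Cre, so the effect of the allele or of Cre itself was not measured. A level is the log2 intensity of a probe less the 75th percentile of its array (in log2), so 0 is the 75th percentile and 1 unit is a doubling of the intensity. A call is an adjusted p under 0.05 in limma over 22354 genes.

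TLRs are membrane proteins that bind microbial molecules and, through adaptor proteins, switch on NF-κB and interferon regulatory factors. TLR2 pairs with TLR1 or TLR6 at the cell surface and binds bacterial lipoproteins, while TLR4, with its partner MD-2 and with CD14, binds LPS, the agent of the M1 stimulus itself. TLR5 binds flagellin. TLR3, TLR7, TLR8 and TLR9 sit in endosomes and bind nucleic acids. CD14 has no signalling domain of its own and hands LPS to TLR4 and MD-2.

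The promoters of 4 members are shown because these genes move with the stimulus (*Tlr6*, *Tlr3* and *Tlr8*) or between the cultures (*Tlr2*), and because each holds a match to a motif of a factor that the stimuli or the genotype are known to act through. Each is the 250 bases before an annotated start, 5′ to 3′ along the gene, from RefSeq (GRCm38.p6), with motif matches on either strand in capitals.
Tlr6, chr5:64959167-64959416, minus strand: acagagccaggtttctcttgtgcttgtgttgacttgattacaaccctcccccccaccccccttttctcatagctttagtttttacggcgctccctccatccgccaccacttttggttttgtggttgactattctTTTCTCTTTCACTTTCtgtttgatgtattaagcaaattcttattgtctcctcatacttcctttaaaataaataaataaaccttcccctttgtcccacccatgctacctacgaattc
Tlr2, chr3:83841609-83841858, minus strand: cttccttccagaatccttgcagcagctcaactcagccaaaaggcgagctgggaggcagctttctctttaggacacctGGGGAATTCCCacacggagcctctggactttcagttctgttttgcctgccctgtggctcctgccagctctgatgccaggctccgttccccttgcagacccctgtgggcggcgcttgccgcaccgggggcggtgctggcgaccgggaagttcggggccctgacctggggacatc
Tlr3, chr8:45410381-45410630, minus strand: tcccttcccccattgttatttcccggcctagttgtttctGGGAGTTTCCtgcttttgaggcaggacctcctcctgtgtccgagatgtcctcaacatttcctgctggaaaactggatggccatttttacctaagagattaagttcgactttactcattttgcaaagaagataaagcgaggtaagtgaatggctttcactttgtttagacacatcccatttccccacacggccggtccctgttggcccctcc
Tlr8, chrX:167264330-167264579, minus strand: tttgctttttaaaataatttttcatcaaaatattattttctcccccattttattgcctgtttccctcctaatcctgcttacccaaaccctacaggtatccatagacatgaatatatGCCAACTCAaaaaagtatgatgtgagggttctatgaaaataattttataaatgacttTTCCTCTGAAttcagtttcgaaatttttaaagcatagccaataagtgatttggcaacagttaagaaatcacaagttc

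Promoters of 7 of the 10 members were in the table, with 9 starts in all, and those of *Tlr4*, *Tlr7* and *Cd14* were not. In the *Tlr6* window the capitals are 2 overlapping matches to the core of the interferon-stimulated response element (GAAANNGAAA), which begin 116 and 110 bases before the start. This core was found in 2.98% of 32841 promoter windows of the same length. The *Tlr2* window holds a pair of overlapping kappa-B matches 173 and 172 bases before the start, and the *Tlr3* window holds 1 at 211 bases, in a motif present in 3.90% of all windows. In the *Tlr8* window the capitals are, along the gene, a core of the antioxidant response element (TGAGNNNGC or TGACNNNGC, in 23.0% of windows) and a STAT6 motif (TTCNNNNGAA, in 5.85% of windows), at 134 and 77 bases before the start. Of the other 5 windows, the *Tlr9* window holds 1 antioxidant response core, and both windows of *Tlr1*, the second window of *Tlr6* and the window of *Tlr5* hold no match to these 4 motifs. A match is a description of the letters and says nothing of binding in these cells.

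The arrays carried the genotype that their labels give. *Keap1* was 1.46 to 1.81 lower (log2) and *Nqo1*, a known Nrf2 target, 3.23 to 3.52 higher in KpCKO than in WT under each stimulus, all past the threshold. Macrophage markers were present throughout, with 5 of 6 listed genes measured and 5 well above background on all 12 arrays. Of the markers of other cells, *Elane* (neutrophils), *Ms4a1* and *Pax5* (B cells) and *Cd3d* (T cells) were well above background on no array. The 75th percentile of the intensity was 548 to 757 on the WT M1 arrays, 787 to 906 on the KpCKO M1 arrays and 966 to 1166 on the others, and was lowest on WT M1 culture 2. The fewest probes stood well above background on WT M1 culture 1 (59.3%), beside 64.6% to 71.4% on the other 11 arrays. The 4 arrays of a stimulus shared 1 slide, so a stimulus and its slide cannot be told apart, whereas the genotypes were compared within a slide.

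**Figure D1:**
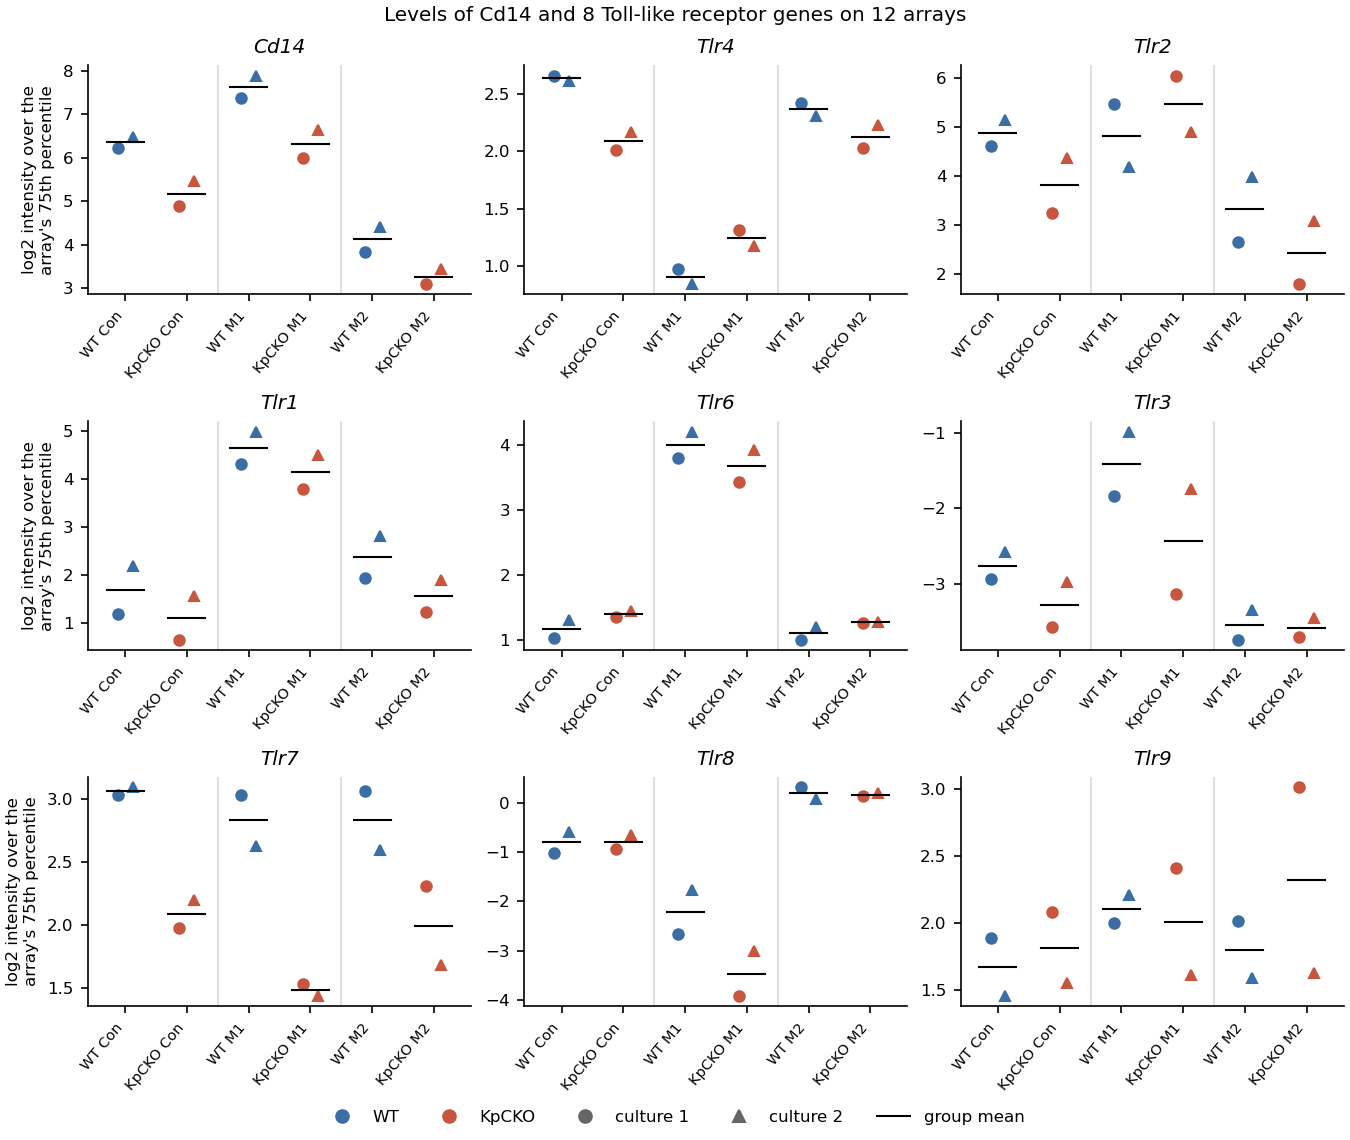
Each panel plots the log2 level of 1 gene (log2 intensity less the array's 75th percentile) on the 12 arrays by group, with circles for culture 1, triangles for culture 2 and a line at the group mean. *Cd14* is lower in KpCKO than in WT under each stimulus, *Tlr1* and *Tlr6* are highest in the 4 M1 arrays, *Tlr4* is lowest there, and the 2 cultures of *Tlr2* change places under M1.

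M1 stimulation moved most of the TLR genes, upward for some and downward for others, and in the same direction in both genotypes. In WT, 6 of 9 members passed the test: *Tlr1*, *Tlr6*, *Tlr3* and *Cd14* rose, and *Tlr4* and *Tlr8* fell. The same 6 genes passed in KpCKO with the same signs. M1 moved a large part of all genes, 63.2% of those tested in WT and 50.2% in KpCKO, so a count of 6 of 9 is near the share of all genes. The median difference over the 9 members was 0.43 in WT and 0.84 in KpCKO, beside 0.13 and 0.03 over all genes. Fewer cells of a type and less RNA per cell cannot be told apart in such bulk RNA.

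M2 stimulation moved few of them. *Cd14* fell in both genotypes and *Tlr1* rose in WT, 2 of 9 members in WT and 1 of 9 in KpCKO, beside 16.8% and 10.2% of all genes. The median difference over the members was −0.23 in WT and −0.09 in KpCKO.

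*Cd14* went in opposite directions under the 2 stimuli. Its level was 6.23 and 6.48 in WT Con, 7.39 and 7.89 in WT M1, and 3.83 and 4.40 in WT M2 (cultures 1 and 2). In KpCKO it was 4.89 and 5.45 in Con, 5.99 and 6.63 in M1, and 3.09 and 3.43 in M2. No M1 or M2 value overlapped the Con values of its genotype. The M1 rise was 1.28 ± 0.12 (log2, SE, adjusted p = 0.000135) in WT and 1.14 ± 0.12 in KpCKO (adjusted p = 0.00037). Before scaling, the intensities were 86114 and 91008 in WT Con and 126712 and 129926 in WT M1, where the scale of the arrays was lower, and with quantile normalization the rise was 0.42 in WT and 0.62 in KpCKO, still called. Under M2 *Cd14* fell by 2.24 in WT (4.72-fold, adjusted p = 0.000324) and by 1.91 in KpCKO (3.76-fold, adjusted p = 0.000959).

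*Tlr4*, the signalling receptor for LPS, fell under M1 while its co-receptor gene rose. Its probe is printed 10 times on each array, and the SD between the spots of an array was 0.02 to 0.08. Levels were 2.66 and 2.61 in WT Con against 0.97 and 0.84 in WT M1, and 2.01 and 2.17 in KpCKO Con against 1.32 and 1.18 in KpCKO M1. *Tlr4* fell by 1.73 in WT (3.31-fold, 95% interval −2.02 to −1.44, adjusted p = 3.91e-05) and by 0.84 in KpCKO (1.79-fold, −1.13 to −0.55, adjusted p = 0.00131). Under M2 the levels, 2.42 and 2.31 in WT and 2.03 and 2.23 in KpCKO, gave differences from Con of −0.27 (adjusted p = 0.179) and 0.04 that did not pass.

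*Tlr1* and *Tlr6*, the genes of the partners of TLR2, rose together under M1 and are neighbours on chromosome 5. *Tlr1* was 1.20 and 2.18 in WT Con and 4.31 and 4.98 in WT M1, and 0.65 and 1.57 in KpCKO Con and 3.80 and 4.49 in KpCKO M1. The rise was 2.96 ± 0.12 in WT (7.76-fold, adjusted p = 5.62e-06) and 3.03 ± 0.12 in KpCKO (8.18-fold, adjusted p = 8.86e-06). Every M1 value of *Tlr1* lay above every other value of the gene. *Tlr6* was 1.03 and 1.31 in WT Con and 3.80 and 4.20 in WT M1, and 1.36 and 1.45 in KpCKO Con and 3.42 and 3.92 in KpCKO M1. The rise was 2.83 ± 0.14 in WT (7.12-fold, adjusted p = 1.01e-05) and 2.27 ± 0.14 in KpCKO (4.82-fold, adjusted p = 3.92e-05), again with the M1 values above all others. The 2 genes differed under M2. *Tlr1* rose by 0.68 ± 0.12 in WT (adjusted p = 0.0107; 1.93 and 2.82 against Con) and differed by 0.45 in KpCKO (1.23 and 1.91; adjusted p = 0.053), and each culture moved upward although the 2 groups overlapped. The WT call was lost without WT Con culture 1 or either WT M2 array. *Tlr6* was 1.0 and 1.20 in WT M2 and 1.26 and 1.28 in KpCKO M2, with differences from Con of −0.07 and −0.13.

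*Tlr2*, the shared partner, passed no test, and its cultures lay far apart. Its levels were 4.62 and 5.15 in WT Con, 5.47 and 4.20 in WT M1 and 2.67 and 3.99 in WT M2. In KpCKO they were 3.25 and 4.38 in Con, 6.06 and 4.91 in M1 and 1.80 and 3.09 in M2. Culture 2 was above culture 1 in the 4 Con and M2 groups, and culture 1 was above culture 2 in both M1 groups. In WT the M1 response was 0.85 in culture 1 and −0.95 in culture 2, with a mean of −0.05 (95% interval −1.78 to 1.69). In KpCKO it was 2.81 and 0.53, with a mean of 1.67 (−0.07 to 3.40, adjusted p = 0.0989). The M2 differences, −1.55 in WT (adjusted p = 0.194) and −1.37 in KpCKO (adjusted p = 0.283), were negative in both cultures of both genotypes. The 10 spots of the *Tlr2* probe had an SD of 0.03 to 0.06 within an array, against gaps between the cultures of a group from −1.27 to 1.33 (culture 2 less culture 1).

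**Figure D2:**
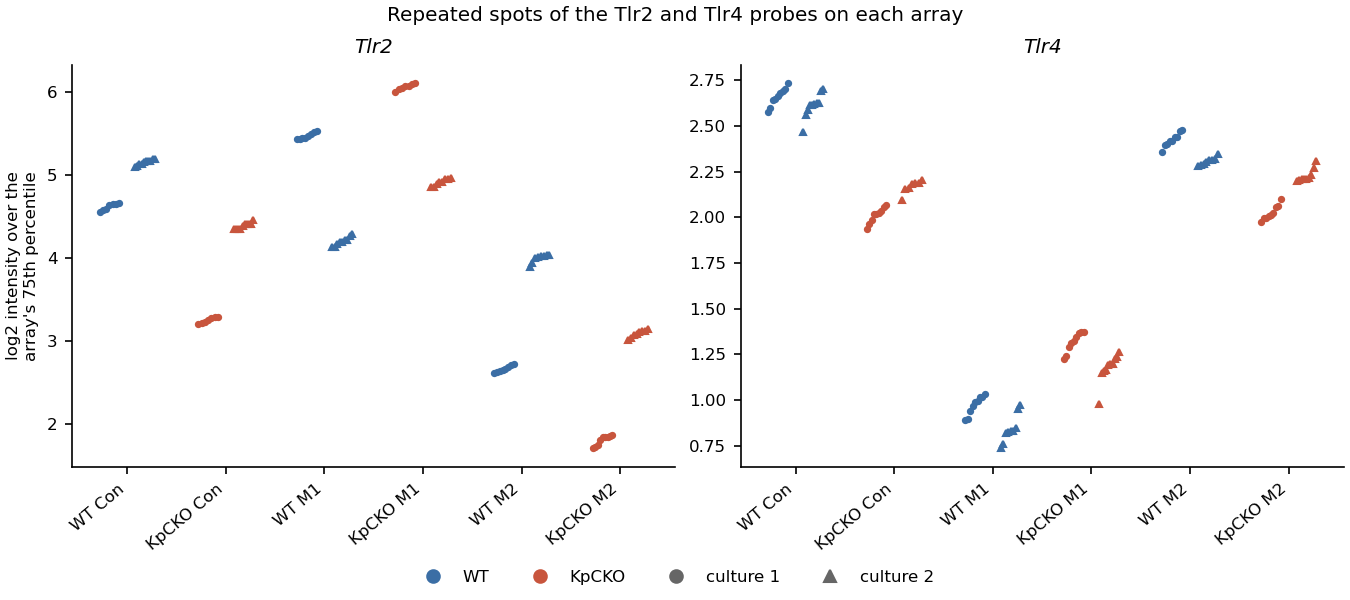
Repeated spots of the *Tlr2* probe (left) and the *Tlr4* probe (right) on each array, as log2 intensity less the array's 75th percentile, sorted within an array, with circles for culture 1 and triangles for culture 2. The spots of an array lie close together, with an SD of at most 0.06 for *Tlr2* and 0.08 for *Tlr4*, and for *Tlr2* the cultures of a group lie far apart in comparison.

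Among the endosomal receptors, *Tlr3*, whose product binds double-stranded RNA, was higher under M1. Its brighter probe gave −2.94 and −2.59 in WT Con, −1.84 and −0.99 in WT M1, −3.57 and −2.98 in KpCKO Con and −3.13 and −1.74 in KpCKO M1. This probe is dim in every group, from 87.0 intensity units in WT M2 to 277 in WT M1. The rise was 1.35 ± 0.27 in WT (2.55-fold, adjusted p = 0.00389) and 0.84 ± 0.27 in KpCKO (1.79-fold, adjusted p = 0.0351), and the KpCKO groups overlapped. The KpCKO call was lost without either KpCKO Con array or without KpCKO M1 culture 2. The WT M2 values, −3.74 and −3.36, lay below Con by 0.79 on average (adjusted p = 0.0917). A second *Tlr3* probe was within 0.31 of the first on 11 arrays and 1.77 below it on WT M1 culture 2, where it read −2.75. With that probe the WT difference was 0.60 (adjusted p = 0.338) and the KpCKO difference 0.93 (adjusted p = 0.177), and neither was called. Without WT M1 culture 2 the brighter probe gave 1.22 in WT (adjusted p = 0.0286).

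*Tlr8* fell under M1 and had its highest values under M2. Levels were −1.02 and −0.59 in WT Con, −2.67 and −1.77 in WT M1 and 0.31 and 0.07 in WT M2. In KpCKO they were −0.95 and −0.66 in Con, −3.91 and −3.01 in M1 and 0.13 and 0.20 in M2. It fell by 1.41 in WT (2.67-fold, adjusted p = 0.00419) and by 2.66 in KpCKO (6.32-fold, adjusted p = 0.000358), with no overlap. The M2 differences were 1.0 in WT (adjusted p = 0.0561) and 0.97 in KpCKO (adjusted p = 0.0795), also with no overlap between groups, and did not pass.

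*Tlr7* and *Tlr9*, the genes of sensors of single-stranded RNA and of CpG DNA, passed in no stimulus comparison. *Tlr7* was 3.04 and 3.09 in WT Con, 3.03 and 2.63 in WT M1 and 3.07 and 2.59 in WT M2, a narrow range. In KpCKO it was 1.98 and 2.20 in Con, 1.53 and 1.44 in M1 and 2.31 and 1.68 in M2, and its M1 difference was −0.60 (adjusted p = 0.0534) beside −0.23 in WT (adjusted p = 0.374). *Tlr9* had the smallest span of group means of the 9 members, 0.65. Its values were 1.89 and 1.46 in WT Con, 2.0 and 2.21 in WT M1, and 2.02 and 1.59 in WT M2. The KpCKO values were 2.08 and 1.55 in Con, 2.41 and 1.61 in M1 and 3.01 and 1.63 in M2, and neighbouring groups overlapped along the whole order.

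**Figure D3:**
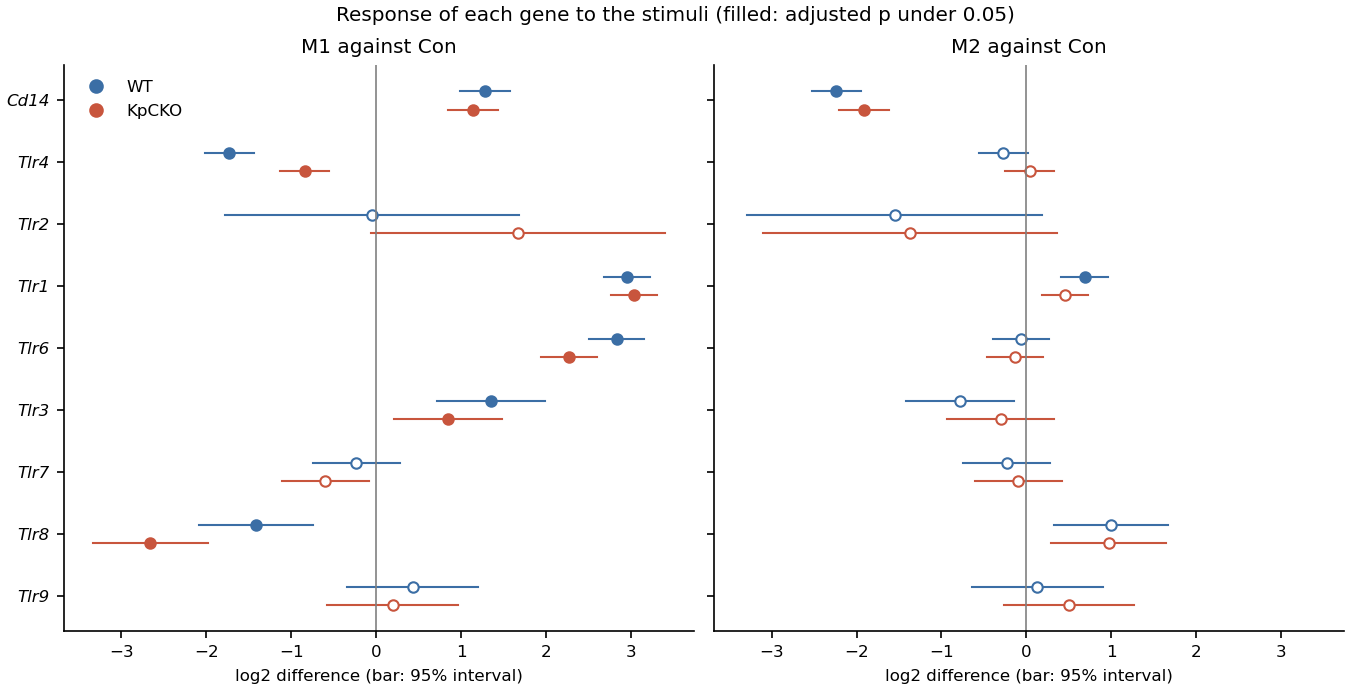
Log2 difference of M1 (left) and M2 (right) from Con for each gene in WT and KpCKO, with 95% intervals of limma, filled where the adjusted p was under 0.05. Under M1, *Tlr1*, *Tlr6*, *Tlr3* and *Cd14* lie to the right and *Tlr4* and *Tlr8* to the left in both genotypes, and under M2 *Cd14* is the gene far from 0 with a narrow interval.

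Several members were lower in KpCKO than in WT, and *Cd14* passed under each stimulus. Without a stimulus 1 of 9 members passed, *Cd14*, beside 2.21% of all genes. Under M1 5 of 9 passed and all 5 were lower in KpCKO (*Cd14*, *Tlr7*, *Tlr8*, *Tlr3* and *Tlr1*), beside 16% of all genes, of which 7.41% were higher and 8.60% lower. Under M2 2 of 9 passed, *Cd14* and *Tlr1*, both lower, beside 1.93% of all genes. The median difference over the 9 members was −0.55 in Con, −0.50 in M1 and −0.24 in M2, against 0.00, −0.09 and 0.02 over all genes.

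In both cultures and under each stimulus *Cd14* was the lower in KpCKO, with no overlap of the genotypes. The difference was −1.19 ± 0.12 without a stimulus (2.27-fold lower, adjusted p = 0.00639). It was −1.33 ± 0.12 with the M1 stimulus (2.51-fold lower, adjusted p = 0.00186) and −0.86 ± 0.12 with the M2 stimulus (1.81-fold lower, adjusted p = 0.0226). KpCKO cells given the M1 stimulus had a mean of 6.31, beside 6.35 in WT cells without one. Over the 6 groups the order of *Cd14* ran from WT M1 through WT Con, KpCKO M1, KpCKO Con and WT M2 to KpCKO M2, and of these neighbours WT Con and KpCKO M1 alone overlapped. In M2 the call did not survive the loss of any of the 4 arrays, and in Con it needed culture 1 of both genotypes, though the size stayed between −1.33 and −1.04 in Con and between −0.94 and −0.71 in M2 over the alternatives run. In M1 the size stayed between −1.43 and −1.07. With no culture block, or with only the arrays of the stimulus compared, the call was lost under all 3 stimuli. The second of these settings called 0 of all genes between the genotypes. The M2 call was also lost with normexp or no filter on dim probes.

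*Tlr1* was also the lower in KpCKO in all 6 pairs of arrays. The difference was −0.58 in Con (adjusted p = 0.0626), −0.50 ± 0.12 in M1 (1.41-fold lower, adjusted p = 0.0331) and −0.81 ± 0.12 in M2 (1.75-fold lower, adjusted p = 0.0225). The cultures of a group were 0.68 to 0.98 apart, more than the M1 difference, so the genotypes overlapped in Con and M1 and the calls rest on the comparison within a culture. Leaving out any 1 of the 4 arrays compared ended the M1 call and, likewise, the M2 call. *Tlr6* differed by 0.23 in Con, −0.33 in M1 (adjusted p = 0.145) and 0.17 in M2, and passed in none.

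*Tlr7* was likewise lower in KpCKO in all 6 pairs, with differences in cultures 1 and 2 of −1.06 and −0.89 in Con, −1.5 and −1.19 in M1 and −0.76 and −0.91 in M2, without overlap of the genotypes in any stimulus. The M1 difference passed (−1.35 ± 0.22, 2.54-fold lower, adjusted p = 0.0119), while those in Con (−0.98, adjusted p = 0.0842) and M2 (−0.84, adjusted p = 0.138) did not. Without KpCKO M1 culture 1 the M1 call was lost as well.

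*Tlr8* differed between the genotypes by −0.00 without a stimulus (95% interval −0.68 to 0.67) and by −0.03 under M2 (−0.70 to 0.65), and neither passed. Under M1 the difference was −1.25 ± 0.28 (2.37-fold lower, adjusted p = 0.0324), with −1.25 in culture 1 and −1.24 in culture 2. The *Tlr8* probe is dim under M1, at 119 and 161 intensity units in WT and 60.1 and 97.5 in KpCKO. The call was lost with a normexp background correction, no filter on dim probes, no culture block or only the M1 arrays. Without WT M1 culture 2 the difference was −0.94 and the call was lost (adjusted p = 0.156), as it was without KpCKO M1 culture 1. The brighter *Tlr3* probe was lower in KpCKO M1 by 1.02 (2.03-fold, adjusted p = 0.0451), and the dimmer by 0.16 (adjusted p = 0.85), the gap between the probes lying on WT M1 culture 2, without which the brighter gave −0.89 (adjusted p = 0.192). That call was also lost without culture 1 of either genotype. *Tlr4* differed by −0.55 in Con (adjusted p = 0.0864), 0.34 in M1 (adjusted p = 0.103) and −0.24 in M2. The genotypes did not overlap under any stimulus, KpCKO lying lower in Con and M2 and higher in M1. *Tlr2* differed by −1.07 in Con, 0.65 in M1 and −0.88 in M2. Its intervals reached from −2.80 to 2.38, and *Tlr9* differed by −0.09 to 0.52. None of these passed.

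The summed levels of macrophage and of dendritic cell markers also lay lower in KpCKO, the second sum being nearly all *Bst2*. The genotypes overlapped for the macrophage sum in M2 alone. The log2 of the summed level of 5 macrophage markers was 8.56 to 8.73 in WT Con against 8.30 to 8.47 in KpCKO Con, 9.10 to 9.54 against 8.78 to 8.97 in M1, and 8.59 to 8.80 against 8.44 to 8.62 in M2. For 6 of 7 dendritic cell markers it was 5.11 to 5.31 against 4.57 to 4.58 in Con, 6.93 to 7.53 against 6.00 to 6.76 in M1, and 5.19 to 5.22 against 4.82 to 4.83 in M2. Of these 6 markers 4 were well above background on all 12 arrays. *Bst2*, which interferon also induces, ranged from 4.55 to 7.52, beside 4.57 to 7.53 for the whole sum. The highest reading of any other marker in the sum was −0.93, of *Xcr1*, and *Flt3*, a defining one, read between −5.59 and −4.20. The dendritic cell difference is therefore in the main that of *Bst2*. The part of these differences in the lower *Cd14*, *Tlr1* and *Tlr7* was not tested.

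**Figure D4:**
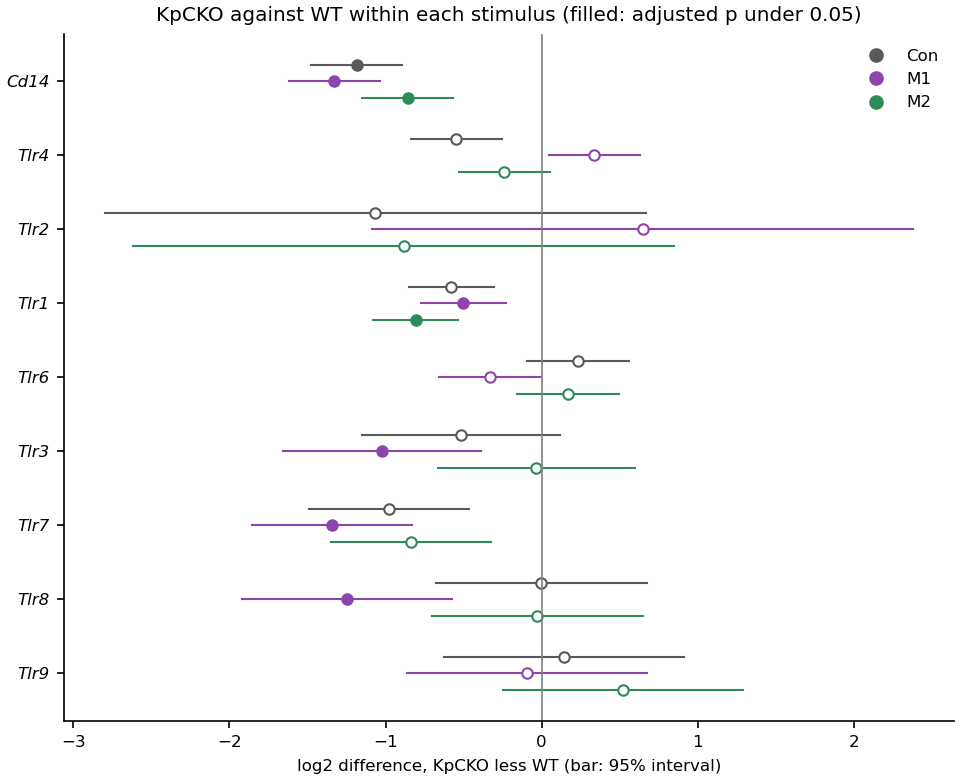
Log2 difference of KpCKO from WT for each gene in Con, M1 and M2, with 95% intervals of limma, filled where the adjusted p was under 0.05. The 3 values of *Cd14*, of *Tlr1* and of *Tlr7* lie below 0, those of *Tlr8* lie near 0 in Con and M2 and at −1.25 in M1, and the intervals of *Tlr2* are the widest.

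Whether the genotypes differed in the response itself was asked of the difference between the genotypes in the step from Con. No member passed for M1 (beside 0.0716% of all genes) or for M2 (beside 0.00895%), while 3 of 9 had an unadjusted p under 0.05 for M1 and 0 of 9 for M2, beside 3662 and 450 of all 22354 genes. These 3 were *Tlr4*, *Tlr8* and *Tlr6*. For *Tlr4* the KpCKO step less the WT step was 0.89 (95% interval 0.47 to 1.30, adjusted p = 0.124), with 0.99 in culture 1 and 0.78 in culture 2. It was −1.25 for *Tlr8* (−2.20 to −0.29, adjusted p = 0.229) and −0.56 for *Tlr6* (−1.02 to −0.10, adjusted p = 0.247). For *Cd14* the step differed by −0.14 in M1 (−0.56 to 0.27) and by 0.33 in M2 (−0.08 to 0.74). For *Tlr2* the M1 step differed by 1.71, with an interval of −0.74 to 4.17. Comparisons of the 2 genotypes' responses and of the genotypes within M1 share the same arrays and are not independent of each other.

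The rest of the receptor pathway was read from a list of 25 genes by role, of which 22 had a probe and *Tlr11*, *Tlr12* and *Tlr13* were not analysed here. Of the 22, 16 passed under M1 in WT (9 higher, 7 lower) and 15 in KpCKO (9 higher, 6 lower), beside 63.2% and 50.2% of all genes. Under M2, 5 passed in WT (1 higher, 4 lower) and 2 in KpCKO, beside 16.8% and 10.2%. Against WT, KpCKO had 1 called in Con (beside 2.21%), 5 in M1 (1 higher, 4 lower, beside 16%) and 1 in M2 (beside 1.93%). No response difference passed in limma, with 4 of 22 at an unadjusted p under 0.05 for M1 and 0 of 22 for M2.

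Of the 4 adaptors, which carry the signal from the receptor tails, *Myd88* moved most. It was 3.57 and 3.74 in WT Con and 6.28 and 6.64 in WT M1, and 3.21 and 3.51 in KpCKO Con and 5.46 and 5.98 in KpCKO M1. It rose by 2.81 in WT (7.01-fold, adjusted p = 7.01e-06) and by 2.36 in KpCKO (5.13-fold, adjusted p = 2.09e-05) and between the genotypes under M1 it differed by −0.74 (adjusted p = 0.012), a call lost without WT M1 culture 2 or KpCKO M1 culture 1. *Tirap*, which bridges MyD88 to TLR2 and TLR4, fell under M1 by 0.33 in WT and by 0.54 in KpCKO, and under M2 by 0.38 in WT. The WT calls were lost without WT Con culture 1 or either stimulated array, and the M2 call also without WT Con culture 2. *Ticam1*, the gene of the TRIF adaptor of TLR3 and TLR4, fell under M1 in KpCKO by 0.48 (adjusted p = 0.00489) beside a difference of 0.00 in WT, and rose under M2 by 0.49 in WT and 0.51 in KpCKO, calls lost without any 1 of their 4 arrays. Between the genotypes *Ticam1* was lower in KpCKO under M1 by 0.42 (adjusted p = 0.0293), a call lost without WT M1 culture 2 or either KpCKO M1 array.

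Of the 8 accessory and trafficking genes, 6 passed under M1 in WT, beside 63.2% of all genes. *Ly96*, the gene of MD-2, fell with *Tlr4*, by 0.60 in WT (adjusted p = 0.00399) and by 0.40 in KpCKO (adjusted p = 0.0296), where the call was lost without either KpCKO Con array or without KpCKO M1 culture 2. *Cnpy3*, a chaperone of TLR folding, fell by 0.85 in WT and by 0.73 in KpCKO, and *Slc15a4*, needed for endosomal TLR signalling, fell by 0.88 in WT. *Unc93b1*, the chaperone that takes the endosomal TLRs to their compartment, rose by 0.55 in WT and 0.43 in KpCKO, and *Hsp90b1*, their folding chaperone, by 0.48 in WT. With quantile normalization these 3 changed sign, to −0.32, −0.16 and −0.40. The call of *Unc93b1* was lost without WT Con culture 2 in WT and without any 1 of the 4 arrays in KpCKO, and that of *Hsp90b1* without either WT Con array or WT M1 culture 2. *Cd180*, a TLR-like surface protein, fell under M2 by 1.04 in WT (adjusted p = 0.0107) and by 0.87 in KpCKO (adjusted p = 0.0273), calls that were lost without any 1 of their 4 arrays. Under M1 *Cd180* rose in KpCKO by 0.67. That call was lost with normexp, with only the stimuli compared, and without KpCKO Con culture 2 or KpCKO M1 culture 2. In WT it was −0.44 and −0.43 under M1 against −0.78 and −0.97 in Con, and was not called.

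*Lbp*, the gene of the LPS-binding protein that loads LPS onto CD14, was higher in KpCKO, where *Cd14* was lower. In WT it was −4.86 and −4.81 in Con, −4.43 and −4.42 in M1 and −4.92 and −5.16 in M2. In KpCKO it was −2.71 and −2.80 in Con, −2.53 and −2.71 in M1 and −2.96 and −3.11 in M2. No KpCKO value overlapped a WT value. The difference between the genotypes was 2.08 in Con (4.24-fold, adjusted p = 0.00045), 1.81 in M1 (3.5-fold, adjusted p = 0.000551) and 2.01 in M2 (4.02-fold, adjusted p = 0.000723). The probe is dim, at 25.5 to 39.3 intensity units on the WT arrays, and a normexp background correction gave 1.18, 0.73 and 0.40, none of them called. Under M1 *Lbp* rose in WT by 0.41 (adjusted p = 0.0126), the direction of *Cd14*. That call was lost with normexp and without WT Con culture 1 or WT M1 culture 2. Before scaling, the *Lbp* intensity fell, from 39.3 and 36.5 in WT Con to 35.1 and 25.5 in WT M1, whereas that of *Cd14* rose. *Ly86*, the gene of the partner of CD180, was lower in KpCKO under M1 by 0.88 (adjusted p = 0.0347). It also differed by −0.92 in Con and −0.80 in M2, without overlap of the genotypes, but neither passed. *Hsp90b1* was lower in KpCKO under M1 by 0.63 (adjusted p = 0.0418). Both M1 calls were lost without WT M1 culture 2 and with quantile normalization, that of *Ly86* also without WT M1 culture 1 or KpCKO M1 culture 2, and that of *Hsp90b1* without KpCKO M1 culture 1.

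Of the 10 proximal kinases and ligases, 8 passed under M1 in each genotype, beside 63.2% of all genes in WT and 50.2% in KpCKO. *Irak2* rose by 2.17 in WT (4.49-fold) and 1.44 in KpCKO (2.70-fold), *Tab2* by 1.14 and 1.05, *Tbk1* by 1.12 and 0.85, *Traf6* by 0.52 and 0.61 and *Map3k7* by 0.54 and 0.36. *Tab1* fell by 1.22 in WT and 0.83 in KpCKO, and *Irak4*, the kinase nearest to MyD88, by 0.67 and 0.44. *Irak1* fell in WT by 0.38 and *Traf3* rose in KpCKO by 1.36. The call of *Irak1* was lost without either WT Con array or WT M1 culture 1, that of *Traf3* without either KpCKO Con array or KpCKO M1 culture 1, and that of *Map3k7* in KpCKO without any 1 of its 4 arrays. Under M2, *Irak2* fell by 0.57 and *Tab2* by 0.44 in WT, each lost without any 1 of the 4 arrays. None of the 10 passed between the genotypes under any stimulus, beside 2.21% of all genes in Con, 16% in M1 and 1.93% in M2.

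**Figure D5:**
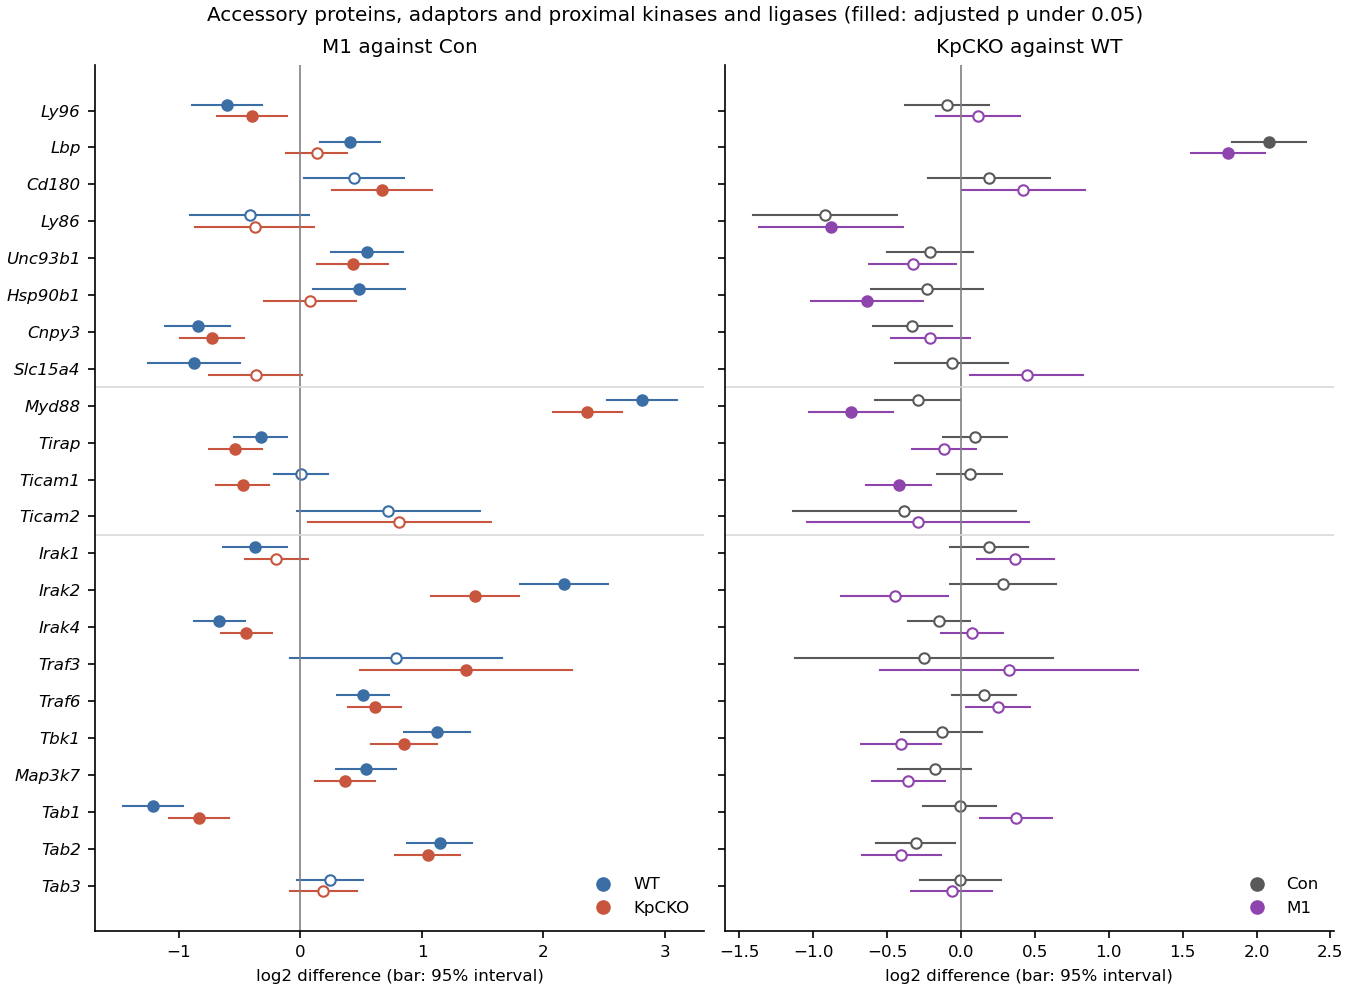
Log2 differences of 22 pathway genes with 95% intervals, for M1 against Con in WT and KpCKO (left) and for KpCKO against WT in Con and M1 (right), filled where the adjusted p was under 0.05, with lines between accessory genes, adaptors and kinases and ligases. *Myd88* and *Irak2* lie farthest to the right under M1, and *Lbp* alone lies far to the right between the genotypes.

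The cultures differed in a direction of their own for several members. Culture 2 was above culture 1 in all 6 groups for *Cd14* (by 0.24 to 0.64), *Tlr1* (0.68 to 0.98), *Tlr3* (0.26 to 1.39) and *Tlr6* (0.01 to 0.50). For *Tlr9* culture 1 was above culture 2 in 5 of 6 groups, by as much as 1.39 in KpCKO M2. For *Tlr4* the gap was between −0.14 and 0.20. The summed level of neutrophil markers also moved with culture. The log2 of the sum of 7 was higher in culture 1 in all 6 groups. It was 4.05 against 2.88 in WT Con and 3.80 against 1.66 in KpCKO M2. This sum, 1.66 to 4.05 over the arrays, is mainly *S100a9* (1.22 to 3.80). *S100a8* read −0.88 to 1.47, and the highest reading of any other marker in the sum was −0.90, of *Ltf*. The part of this sum in the gaps of the members was not tested.

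For the 6 members called in a WT stimulus comparison, the genes with the most similar profile over the 12 arrays were named by the root mean square of the difference between centred levels, among 12108 genes well above background on every array. *Tlr6* lay nearest to *Tspo* (0.12) and *Tpm4* (0.15), *Tlr4* to *Narf* (0.14) and *Trmt12* (0.15), and *Tlr3* to *Tdrd7* (0.18) and *Pak1* (0.19). *Tlr8* lay nearest to *Hlx* (0.27) and *Baiap2* (0.33), *Tlr1* to *Vasp* (0.29) and *Relb* (0.31), and *Cd14*, whose profile was followed least closely, to *Carmil1* (0.41) and *Slc16a10* (0.46). The SD of these members over the arrays was 0.64 to 1.56. The points share arrays, cultures and slides, and no test was made.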

How the data were processed

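The authors scanned Agilent arrays with 1 dye (Cy3) and extracted them with Agilent Feature Extraction 10.7.3.1, and the deposited intensity of a spot is background-subtracted and not scaled between arrays. They also deposited a matrix of log2 values, which on 40749 probes equals the log2 intensity less the 75th percentile of its array, centred on the median of each probe (column medians −0.07 to 0.31, slopes of 0.99967 to 1.00037 between them). Centring keeps differences between arrays but not levels. The methods name GeneSpring for this step, without settings.

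Here, spots flagged as outliers were left out, the repeated spots of each probe were averaged, and the array's 75th percentile was subtracted on the log2 scale. No spot of a member was saturated. Of 41174 probes, 26690 were matched by accession to 18217 symbols of the RefSeq table (GRCm38.p6), used for names and promoters only since the array design is on mm9. The brightest probe stood for a gene. The filter asked for a signal well above background in both cultures of 1 group or more (22367 genes, of which 22354 could be tested), and the genes were fitted with limma 3.58.1 in R 4.3.3, with 6 groups and the culture as a block (5 residual and 1.92 prior degrees of freedom) and Benjamini-Hochberg adjustment over all genes. A gene with a missing spot was fitted without that array. The SE and 95% intervals are of this fit, and the intervals are not adjusted for the number of genes. The number of arrays limits the precision. The p-values measure the spread left within the groups once the shift between the 2 cultures is taken out, pooled over the 6 groups. The block comes from the description of the series, and, over 22084 genes, departures from the group means correlated between groups of the same culture at 0.162 to 0.597 (15 pairs, median 0.342).

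The members and lists were chosen with earlier results of these data known. The pathway genes were listed by role, the pathway genes named are those called, and the genes of like profile are the 2 nearest to each member called in a WT stimulus comparison. Marker lists were of macrophages, neutrophils, dendritic cells, B cells, T cells and stromal or endothelial cells. The log2 of the summed level was 1.66 to 4.05 for 7 neutrophil markers, −4.80 to −2.93 for 4 B cell markers, −7.08 to −4.86 for 2 T cell markers without a missing value and 2.26 to 3.78 for 4 stromal or endothelial markers. The fit was tested on simulated data. Alternatives were quantile normalization, normexp with an offset of 50, the authors' matrix, no filter, a filter on all 12 arrays, a floor, the mean of a gene's probes, every probe tested, the dimmer *Tlr3* probe, no block, the mouse as a random block (correlation −0.0507), only the stimuli compared, a variance trend with a robust prior, and leaving out each array. Figures were made with Python 3.11.15 and matplotlib 3.10.9.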

Additional observations from a re-analysis of the deposited data

Results flagged for a closer look

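The M2 difference of *Tlr4* from Con differed in sign between the genotypes, but that in KpCKO was 0.04 (95% interval −0.25 to 0.33), which shows no rise. The difference from Con was −0.24 and −0.31 in the 2 WT cultures and 0.01 and 0.06 in the 2 KpCKO cultures. Between the genotypes these differ by 0.31 (95% interval −0.10 to 0.72, unadjusted p = 0.119 in limma). The test of the difference did not pass after adjustment over all genes, and neither response was called.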

How the results depend on the processing

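The 23 calls of members were recomputed under 391 alternative settings or left-out arrays. All kept their direction, 328 stayed called and 63 did not, and 12 of the 23 calls were never lost, namely those of *Cd14*, *Tlr1*, *Tlr4*, *Tlr6* and *Tlr8* under M1 in both genotypes and of *Cd14* under M2 in both. With the replicate block left out, the pairing by culture is lost, and the members called became 0 of 9 instead of 1 for KpCKO Con against WT Con, 1 instead of 5 in M1, 0 instead of 2 in M2, and 1 instead of 2 for WT M2 against WT Con, the other counts being within 1.5 times of the main ones. With only the arrays of the stimuli compared, these 4 counts were 0, 0, 0 and 5, and KpCKO M2 against KpCKO Con gave 3 instead of 1, with fewer arrays behind the spread. That setting called 0 of all genes in each of the 3 genotype comparisons, so its zeros are not particular to the members. It called 4959 of all genes for WT M2 against WT Con and 3012 for KpCKO M2 against KpCKO Con, beside 3763 and 2290 in the main fit. A normexp correction gave 1 in M1 and 0 in M2 between the genotypes, and no filter on dim probes gave 2 and 0. The cause was not tested. The calls over all genes fell in these settings too. From 3579 in M1 and 431 in M2 between the genotypes, they became 915 and 224 with normexp. With no filter they were 2621 and 237 (of 32282 genes), and with no block 1193 and 193. With no block they also fell from 494 to 192 in Con, and from 3763 to 1716 for WT M2 against WT Con. A variance trend gave 4 in Con between the genotypes and 2 for KpCKO M2 against KpCKO Con, and a filter on all 12 arrays gave 2 and 2. Over all genes these 2 comparisons called 494 and 2290 in the main fit and 700 and 2800 with the trend. With that filter they called 561 and 2581, of 17175 genes. Every probe tested, and a floor, gave 2 for KpCKO M2 against KpCKO Con, beside 3270 of 29504 probes and 2513 of 22354 genes called. Leaving out 1 array gave 6 to 7 members for WT M1, 1 to 2 for WT M2, 5 to 6 for KpCKO M1 and 1 to 1 for KpCKO M2 against Con. Between the genotypes it gave 0 to 1 in Con, 1 to 4 in M1 and 0 to 0 in M2, and for the response differences 0. For *Tlr2* it turned the sign of the M1 response in WT (−0.99 to 0.90, positive without WT Con culture 2, at 0.09, or without WT M1 culture 2, at 0.90) and of KpCKO M1 against WT M1 (−0.30 to 1.59, negative without KpCKO M1 culture 1, at −0.23, or without WT M1 culture 2, at −0.30). With quantile normalization the difference in the M1 response of *Cd14* was 0.20, *Unc93b1* under M1 was −0.32 in WT and −0.16 in KpCKO, and *Hsp90b1* in WT was −0.40. The median of all genes for WT M1 against WT Con was 0.13, with −0.08 by quantile and 0.40 by normexp, and the all-gene calls split into 7721 higher and 6410 lower against 6544 and 7937 by quantile. For KpCKO M1 against WT M1 they split into 1657 and 1922 against 2030 and 1351. Calls of pathway genes, 54 in all, were recomputed 918 times, with 764 still called, 151 lost and 3 reversed. Dim probes limit *Lbp* and *Tlr3* in every group and *Tlr8* under M1.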
